A study of Homo sapiens with 12 samples.

Results

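T98G, an established human glioblastoma cell line, was profiled by RNA sequencing with PEPD over-expressed and without. The account rests on the 6 libraries of the series that came from T98G, of 12 in all, chosen by cell line alone and using every gene of the deposited table. The 3 libraries labelled PEPD-OE came from T98G cells over-expressing PEPD, and the 3 labelled NC from T98G cells under a control condition whose abbreviation the labels do not expand. No other allele, drug or time point is given for either group. The labels also do not name the vector, its promoter, whether the cells were 1 clone or a pool, or whether the replicates were separate cultures. The p-values therefore measure how far these samples spread, and that spread may be technical only.

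PEPD encodes peptidase D, or prolidase, a cytosolic enzyme that cleaves dipeptides ending in proline or hydroxyproline and so recycles proline from collagen breakdown. Interferon, through its receptors and the factors they activate, induces a battery of antiviral genes. NRF2, released from KEAP1 by oxidants, induces genes of glutathione, of NADPH supply and of carbonyl detoxification. ATF4, translated when amino acids run short or the endoplasmic reticulum is strained, induces amino acid carriers, serine synthesis and tRNA synthetases, and HSF1 induces chaperones.

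The antiviral genes held most of the largest falls. IFIT3, MX1 (opposite AP001610.1), IFI44L, OAS3 and ISG15 (opposite AL645608.3) fell by log2 fold changes from -4.14 to -5.22, and 34 of 36 tested interferon-induced effectors fell. Many genes of tRNA charging, chaperoning, the proteasome and ribosome assembly also fell. Among the genes that rose were many of aldo-keto reductases, glutathione synthesis, the pentose phosphate pathway, ferritin and sterol synthesis. The strongest single rises included AKR1C1 and AKR1C2, SAT1 of polyamine breakdown, and the counts under CCDC152 at the selenoprotein P locus.

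The libraries were shallow, and NC library 1 was the smallest. Totals were 767708, 721782 and 776755 counts in PEPD-OE and 464056, 741436 and 763006 in NC. Before any scaling, 3 counts thus equalled 3.86 to 6.46 counts per 1000000 (CPM) of the library total. Between 14606 and 16401 genes had a count in a library. Mitochondrially encoded genes took 7.95% to 9.73% of the PEPD-OE counts and 5.07% to 6.14% of the NC counts. Genes with an exon opposite another gene held 62.2% to 66.6% of the counts, and many such names had far more counts than the abundant gene on the other strand. Whether a count under such a name is a read of the partner was not tested, so the partner stands after the word opposite. Both libraries numbered 2 stood apart in 1 respect, found after the values were seen. They held 2630 (PEPD-OE) and 1707 (NC) counts of the haemoglobin gene HBB against 4 to 30 in the other 4 libraries. Their 23 red and white blood cell genes summed to 3283 and 2379 counts, 0.455% and 0.321% of the library, against 16 to 46 counts elsewhere. The leucocyte antigen gene PTPRC had 25 and 35 counts in them against 0 to 2. Of the 23 genes, 20 were higher in both libraries numbered 2 than in every other T98G library. As 1 such library lies in each group, counts below are also given without both where that moved them by over 1.5 times.

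**Figure D1:**
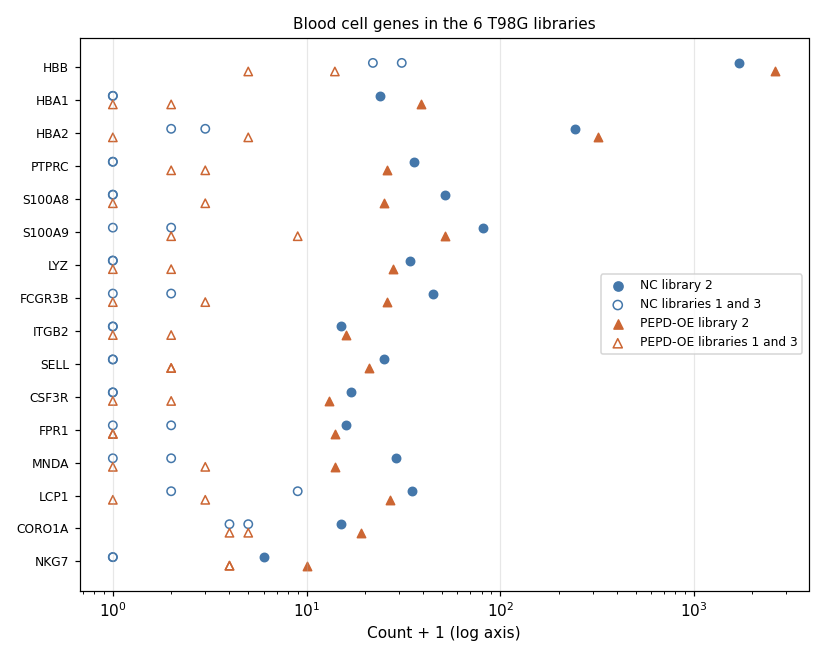
Counts plus 1 (log axis) of blood cell genes with at least 20 counts over the 6 T98G libraries. Circles are NC and triangles PEPD-OE libraries, filled for the libraries numbered 2 and open for the others. HBB stands at 2630 and 1707 counts in the libraries numbered 2 and at 4 to 30 in the rest.

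PEPD (ENSG00000124299, chromosome 19, 33386950 to 33521794, minus strand, GRCh38) had no exon on the opposite strand. It had 118, 100 and 114 counts in the PEPD-OE libraries and 9, 2 and 9 counts in the NC libraries. These were 175, 154 and 162 CPM in the PEPD-OE libraries and 19.4, 2.64 and 11.4 CPM in the NC libraries, where CPM is scaled by the TMM method. Every PEPD-OE library was above every NC library (log2 fold change 4.01, SE 0.25, edgeR adjusted p = 3.40e-30). The NC level rests on 2 to 9 counts a library. Leaving out single libraries gave 3.48 (without NC library 2) and 4.50 (without NC library 1) at the extremes.

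Over all genes, 7199 passed the count filter (edgeR filterByExpr, minimum count 10) and 2872 (39.9%) were called at an adjusted p under 0.05. Of the tested genes 1497 (20.8%) rose and 1375 (19.1%) fell, and these shares are the background for every gene group below. The median log2 fold change was -0.01. At least 2-fold changes were called upward for 726 genes and downward for 547, and at least 8-fold changes for 26 and 37. The libraries of the groups did not overlap for 3469 genes (48.2%). Among 3258 tested genes with no opposite exon 589 rose and 586 fell, and among 3814 with one 860 rose and 758 fell. With both libraries numbered 2 left out, 2262 of 7380 genes were called. The call was kept for 1718 of the 2872 genes in every alternative counted here that tested the gene. Left out of this count were the fit restricted to genes with no opposite exon and the 0.5 threshold on the log2 scale.

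The most raised genes, taken among called genes with an established symbol, had roles of many kinds. LINC02881 (opposite AL137026.1), annotated in release 29 as protein coding, had 51, 46 and 37 counts in the PEPD-OE libraries and 1, 0 and 0 counts in the NC libraries, 133-fold with an exact 95% counting interval of 23.4 to 5288. CCDC152 (opposite SELENOP) had 1482, 1597 and 1454 CPM in the PEPD-OE libraries and 86.1, 63.2 and 77.4 CPM in the NC libraries (log2 fold change 4.34, SE 0.10, edgeR adjusted p = 3.37e-70). SELENOP itself, which encodes the selenium carrier of plasma, had 55.8 ± 19.2 CPM in NC and 58.1 ± 6.09 CPM in PEPD-OE and was not called (adjusted p = 0.727). SAT1, which acetylates spermidine and spermine for export or oxidation, had 166, 204 and 195 CPM in the PEPD-OE libraries and 17.2, 27.7 and 5.07 CPM in the NC libraries (log2 fold change 3.51, SE 0.22, edgeR adjusted p = 7.20e-25). The lowest PEPD-OE library held 5.99 times the CPM of the highest NC library, and without NC library 2 the log2 fold change was 4.26. SCN8A (opposite AC068987.2), a neuronal sodium channel gene, rose from 2.16 ± 2.003 to 30.7 ± 5.82 CPM, and CACNA2D2 (opposite CYB561D2), a calcium channel subunit gene, from 19.04 ± 4.44 to 172 ± 31.98 CPM. HIF1A-AS3, whose gene body lies opposite HIF1A, rose from 15.9 ± 8.89 to 185 ± 31.1 CPM (log2 fold change 3.40). DCPS (opposite AP001318.2), the scavenger of mRNA caps, rose from 24.3 ± 6.24 to 239 ± 16.4 CPM (log2 fold change 3.31). BCL6 (opposite AC072022.2), a zinc finger repressor best known from germinal centre B cells, rose from 6.48 ± 1.42 to 50.7 ± 5.12 CPM (log2 fold change 2.94). FAM20A, a pseudokinase of the secretory pathway, rose from 2.002 ± 0.623 to 22.7 ± 7.27 CPM, and SPAG4, a protein of the nuclear envelope, from 12.2 ± 3.11 to 99.1 ± 26.96 CPM. The rest of the 20 most raised were RN7SKP23 (opposite COG7), OR13E1P (opposite TMEM8B), ANKRD34A (opposite AC243547.2), TBC1D10C (opposite PPP1CA), FXYD6-AS1 (opposite FXYD6), PIWIL2-DT (opposite POLR3D), GSTM3P1 (opposite AL133325.3), TSPAN18 (opposite TP53I11) and the aldo-keto reductases AKR1C1 and AKR1C2 described below. Several of these are noncoding or pseudogene names, and 14 of the 20 have an exon opposite another gene.

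Among the 20 most lowered genes 16 were interferon genes. The exceptions were SGPP2, KRT80, DKK1 and PRAL. SGPP2, which removes the phosphate of sphingosine-1-phosphate, had 1, 2 and 0 counts in the PEPD-OE libraries and 93, 125 and 162 counts in the NC libraries, 128-fold with an exact 95% counting interval of 43.4 to 622 lower. KRT80, an epithelial keratin gene, had 0, 1 and 1 counts in the PEPD-OE libraries and 19, 35 and 19 counts in the NC libraries, 36.8-fold with an exact 95% counting interval of 9.83 to 309.6 lower. DKK1 (opposite PRKG1-AS1), a secreted inhibitor of Wnt receptors, had 0, 1 and 0 counts in the PEPD-OE libraries and 7, 13 and 15 counts in the NC libraries, 35.3-fold with an exact 95% counting interval of 5.93 to 1433 lower. PRAL (opposite XAF1) had 454, 415 and 343 CPM in the PEPD-OE libraries and 5855, 5534 and 5929.8 CPM in the NC libraries (log2 fold change -3.84, SE 0.07, edgeR adjusted p = 2.35e-68), and XAF1 itself, an interferon-induced antagonist of a caspase inhibitor, fell from 75.7 ± 14.9 to 4.95 ± 1.04 CPM (log2 fold change -3.86).

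**Figure D2:**
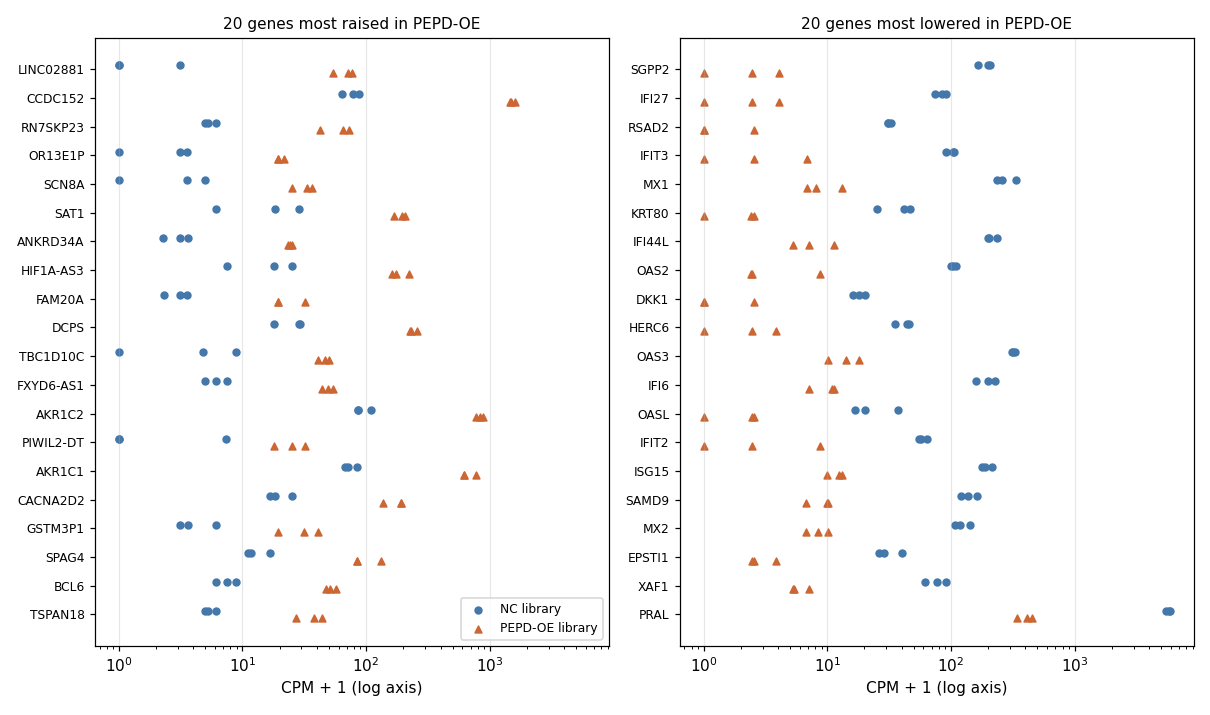
CPM plus 1 (log axis) in each T98G library for the 20 most raised (left) and 20 most lowered (right) named genes, ordered by log2 fold change. Circles are NC and triangles PEPD-OE libraries, and the groups do not overlap in any row, which the rule for choosing the genes required.

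Of 42 interferon-induced effectors in the table, 36 were tested, 34 fell and 1 rose, with a median log2 fold change of -2.57. Where a gene was near 0 in 1 group it passed the filter through the other, so counts over tested members only describe them. IFIT3, whose product joins a complex that binds foreign RNA, had 5.92, 1.54 and 0 CPM in the PEPD-OE libraries and 105, 89.6 and 103 CPM in the NC libraries (log2 fold change -5.22, SE 0.37, edgeR adjusted p = 2.22e-25). It was -6.72 without PEPD-OE library 1 and -4.63 without PEPD-OE library 3, as few PEPD-OE counts carry it. MX1 (opposite AP001610.1), a GTPase that traps viral nucleocapsids, had 5.92, 12.3 and 7.12 CPM in the PEPD-OE libraries and 235, 335 and 260.1 CPM in the NC libraries (log2 fold change -5.03, SE 0.22, edgeR adjusted p = 3.50e-43). The lowest NC library of MX1 held 19.1 times the CPM of the highest PEPD-OE library. IFI44L, another interferon-induced gene, had 10.4, 6.15 and 4.27 CPM in the PEPD-OE libraries and 198, 235 and 204 CPM in the NC libraries (log2 fold change -4.91, SE 0.24, edgeR adjusted p = 6.60e-39). ISG15 (opposite AL645608.3), a ubiquitin-like modifier, had 8.88, 12.3 and 11.4 CPM in the PEPD-OE libraries and 187, 177 and 216 CPM in the NC libraries (log2 fold change -4.14, SE 0.22, edgeR adjusted p = 5.89e-35). IFI27, a mitochondrial protein, was left with 3 counts in PEPD-OE against 164 in NC (55.1-fold with an exact 95% counting interval of 18.5 to 270.0 lower), and RSAD2 (opposite CMPK2), the enzyme viperin that makes a chain-ending nucleotide, with 1 against 62 (62.5-fold with an exact 95% counting interval of 10.8 to 2509 lower).

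Membrane and nuclear effectors fell less far. IFITM3 (opposite AC136475.5), which blocks virus entry at endosomes, fell from 459 ± 61.4 to 159 ± 13.2 CPM (log2 fold change -1.53), and IFITM1 fell from 329 ± 14.5 to 61.4 ± 11.3 CPM (log2 fold change -2.43). BST2, tetherin, fell from 206 ± 14.9 to 85.9 ± 5.47 CPM (log2 fold change -1.26). The nuclear body protein gene SP100 (opposite AC010149.1) fell from 87.01 ± 2.94 to 28.5 ± 4.90 CPM, and LGALS3BP, a secreted glycoprotein, from 284 ± 27.8 to 185 ± 22.5 CPM (log2 fold change -0.63), the smallest called fall of the list. IFITM2 had 40.1 ± 18.2 CPM in NC and 26.3 ± 10.3 CPM in PEPD-OE and was not called. It was called lower without PEPD-OE library 2 (log2 fold change -0.90) or without NC library 3 (-0.96). Its log2 fold change shrank to -0.34 without PEPD-OE library 1 and to -0.16 without NC library 2, neither called. The exception was GBP2, an interferon-induced GTPase, with 90.3, 112 and 117 CPM in the PEPD-OE libraries and 23.7, 51.4 and 50.7 CPM in the NC libraries (log2 fold change 1.26, SE 0.19, edgeR adjusted p = 2.12e-08). Its paralogs went the other way, GBP1 falling from 78.3 ± 12.98 to 21.2 ± 3.42 CPM (log2 fold change -1.85) and GBP3 from 37.2 ± 5.07 to 12.4 ± 6.77 CPM (log2 fold change -1.55).

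Sensors of foreign nucleic acid were in the same direction, with 9 of 10 tested falling and 0 rising (median log2 fold change -2.39). OAS3, which makes the 2-5A signal that activates RNase L, had 13.3, 9.22 and 17.1 CPM in the PEPD-OE libraries and 312, 327 and 315 CPM in the NC libraries (log2 fold change -4.56, SE 0.19, edgeR adjusted p = 1.65e-46). OAS2 fell from 104 ± 5.53 to 3.53 ± 3.60 CPM (log2 fold change -4.83, and -5.96 without PEPD-OE library 2) and OAS1 (opposite AC004551.1) from 67.96 ± 7.62 to 6.87 ± 3.58 CPM (log2 fold change -3.26). IFIH1, the sensor MDA5, fell from 115 ± 15.5 to 11.4 ± 4.92 CPM (log2 fold change -3.30), and EIF2AK2 (opposite AC007899.1), the kinase PKR, from 185 ± 36.4 to 65.4 ± 7.13 CPM (log2 fold change -1.52). ADAR, which edits double-stranded RNA and has an interferon-driven isoform, fell from 202 ± 20.6 to 91.7 ± 1.79 CPM (log2 fold change -1.13). MAVS, the mitochondrial adaptor below these sensors, had 157 ± 17.8 CPM in NC and 187 ± 3.31 CPM in PEPD-OE and was not called.

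The receptors and factors of the pathway moved in both directions, and of 20 members 4 of the 11 tested rose and 4 fell (median log2 fold change 0.42). IRF7, which amplifies interferon genes, had 4.44, 3.07 and 2.85 CPM in the PEPD-OE libraries and 23.7, 30.3 and 26.6 CPM in the NC libraries (log2 fold change -2.92, SE 0.47, edgeR adjusted p = 8.09e-08). IRF1 (opposite C5orf56) fell from 274 ± 23.6 to 151 ± 12.7 CPM (log2 fold change -0.85). SOCS3, a feedback inhibitor of cytokine receptors, rose from 34.2 ± 2.43 to 60.5 ± 7.18 CPM (log2 fold change 0.84). The calls were 2 higher and 3 lower without PEPD-OE library 3, and 2 higher and 4 lower without NC library 3. The type I receptor subunit gene IFNAR1 had 13.6 ± 1.25 CPM in NC and 16.2 ± 4.70 CPM in PEPD-OE and was not called.

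Promoter sequences (RefSeq, GRCh38.p14, 250 bases before to 50 after the start) were searched on both strands for the interferon-stimulated response element as GAAA, any 2 bases and GAAA. It was found in 25 of the 40 windows matched to the 47 called interferon genes and sensors that fell (62.5%), in 0 of 6 windows of tested members that were not called or rose, and in 3.65% of all 27305 windows. The windows of IFIT3 and IFI44L, which lost most of their counts, are shown with each match in capitals, where TTTC is the motif read on the other strand.
IFIT3 (chr10:89327747-89328046, plus strand): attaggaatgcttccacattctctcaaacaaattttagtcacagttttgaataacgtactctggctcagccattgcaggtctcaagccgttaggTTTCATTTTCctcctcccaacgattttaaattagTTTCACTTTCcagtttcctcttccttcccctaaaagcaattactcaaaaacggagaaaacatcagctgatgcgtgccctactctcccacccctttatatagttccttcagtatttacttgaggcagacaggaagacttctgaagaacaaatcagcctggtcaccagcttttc
IFI44L (chr1:78620198-78620497, plus strand): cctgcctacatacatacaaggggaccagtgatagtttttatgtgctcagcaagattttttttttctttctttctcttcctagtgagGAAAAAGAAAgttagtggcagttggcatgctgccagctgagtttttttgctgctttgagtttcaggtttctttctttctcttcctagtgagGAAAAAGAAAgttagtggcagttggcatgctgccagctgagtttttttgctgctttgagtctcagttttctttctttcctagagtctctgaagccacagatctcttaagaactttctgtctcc
Both windows held 2 matches. A match is a run of letters, and binding was not measured.

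Other immune genes moved in both directions. Of 39 chemokine, interleukin and receptor genes 11 were tested, 6 rose and 2 fell. IL7R, the interleukin 7 receptor, had 2.96, 13.8 and 2.85 CPM in the PEPD-OE libraries and 38.7, 38.2 and 54.6 CPM in the NC libraries (log2 fold change -2.76, SE 0.38, edgeR adjusted p = 5.89e-10), and without PEPD-OE library 2 the log2 fold change was -3.84. IL1R1 (opposite IL1R1-AS1), the interleukin 1 receptor, rose from 13.4 ± 3.52 to 61.7 ± 13.8 CPM (log2 fold change 2.18), CSF1, the macrophage growth factor, rose from 68.7 ± 11.5 to 185 ± 12.97 CPM (log2 fold change 1.45), and TNFRSF1A, the main receptor for tumour necrosis factor, rose from 66.1 ± 7.82 to 139 ± 11.9 CPM (log2 fold change 1.08). CXCL12, a chemokine for stem and immune cells, rose from 9.79 ± 5.02 to 24.7 ± 1.92 CPM (log2 fold change 1.44). Of the complement genes only CLU, the secreted chaperone clusterin, kept its call in every such alternative, with a rise from 57.8 ± 11.4 to 204 ± 18.7 CPM (log2 fold change 1.85). NT5E, the ectoenzyme CD73 that makes adenosine, had 2.96, 4.61 and 4.27 CPM in the PEPD-OE libraries and 58.1, 34.3 and 48.2 CPM in the NC libraries (log2 fold change -3.47, SE 0.41, edgeR adjusted p = 1.58e-12), and ENTPD1 (opposite ENTPD1-AS1), CD39 upstream of it, fell from 684 ± 4.49 to 481 ± 38.98 CPM (log2 fold change -0.51).

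The enzymes that reduce carbonyls and quinones rose. Of 32 detoxification reductases and dehydrogenases 22 were tested, 14 rose and 2 fell, with a median log2 fold change of 1.38. AKR1C1 had 617, 615 and 775 CPM in the PEPD-OE libraries and 66.7, 83.01 and 69.8 CPM in the NC libraries (log2 fold change 3.18, SE 0.12, edgeR adjusted p = 3.94e-51), and AKR1C2 had 840.4, 775 and 889 CPM in the PEPD-OE libraries and 108, 85.6 and 85.00 CPM in the NC libraries (log2 fold change 3.19, SE 0.11, edgeR adjusted p = 2.52e-54). The lowest PEPD-OE library held 7.41 times the highest NC library for AKR1C1 and 7.20 times for AKR1C2. These aldo-keto reductases of steroids and lipid aldehydes are near-identical in sequence, so how the authors' counting split reads between AKR1C1, AKR1C2 and AKR1C3 (from 21.4 ± 10.3 to 125 ± 17.4 CPM) is uncertain. AKR1B10, which reduces retinal, rose from 51.1 ± 3.43 to 396 ± 13.8 CPM (log2 fold change 2.94), and AKR1B1, aldose reductase, from 209.8 ± 13.9 to 688 ± 42.3 CPM (log2 fold change 1.72). PTGR1, which reduces reactive lipid enones, rose from 92.7 ± 11.1 to 391 ± 21.3 CPM (log2 fold change 2.10). NQO1 (opposite AC092115.2), a quinone reductase, had 1083, 1082 and 1187 CPM in the PEPD-OE libraries and 458, 484 and 468 CPM in the NC libraries (log2 fold change 1.25, SE 0.08, edgeR adjusted p = 2.20e-27). ALDH3A1 (opposite AC005722.3) rose from 12.9 ± 1.05 to 69.3 ± 10.5 CPM (log2 fold change 2.41) and ALDH3A2 from 39.3 ± 3.27 to 123 ± 12.7 CPM (log2 fold change 1.67), whereas ALDH1A3 (opposite AC015712.2), which makes retinoic acid, fell from 63.7 ± 7.88 to 30.3 ± 12.3 CPM (log2 fold change -1.06).

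Glutathione genes rose in part. Of 36 members 22 were tested, 11 rose and 0 fell (median log2 fold change 0.54). GCLM, the modifier subunit of the rate-limiting ligase, had 157, 154 and 127 CPM in the PEPD-OE libraries and 38.7, 32.9 and 43.1 CPM in the NC libraries (log2 fold change 1.92, SE 0.18, edgeR adjusted p = 2.43e-17), and its catalytic partner GCLC (opposite AL033397.2) rose from 104 ± 15.1 to 284 ± 24.6 CPM (log2 fold change 1.45). SRXN1, which repairs overoxidised peroxiredoxins, rose from 65.95 ± 7.84 to 207 ± 2.27 CPM (log2 fold change 1.63), TXNRD1, thioredoxin reductase, from 539.8 ± 29.5 to 1015 ± 54.4 CPM (log2 fold change 0.91), and GSR, glutathione reductase, from 56.3 ± 13.4 to 104 ± 13.3 CPM (log2 fold change 0.91). GSTP1, a glutathione transferase, had 84.5 ± 2.89 CPM in NC and 69.4 ± 4.49 CPM in PEPD-OE and was not called. The cystine carrier SLC7A11 (opposite SLC7A11-AS1) had 114 ± 16.6 CPM in NC and 112 ± 24.2 CPM in PEPD-OE and was not called. Of 18 drug efflux and conjugation genes 5 of the 6 tested rose and 0 fell (median log2 fold change 1.02), among them ABCC1 (from 41.3 ± 3.55 to 121 ± 6.23 CPM) and ABCC3 (from 44.5 ± 1.34 to 97.6 ± 3.88 CPM), which export conjugates. NFE2L2 (opposite AC079305.1), the NRF2 gene, held 60597 counts over 6 libraries. It neighbours HNRNPA3 (opposite AC079305.3), which rose from 1101 ± 94.8 to 2746 ± 139.8 CPM. Whether its counts are reads of a neighbour was not tested, so no level of NRF2 was read from them. MAFG (opposite AC145207.8), a small partner of NRF2 on DNA, rose from 20.2 ± 0.859 to 42.9 ± 9.04 CPM (log2 fold change 1.07). KEAP1 had 47.1 ± 3.48 CPM in NC and 41.1 ± 9.04 CPM in PEPD-OE and was not called. Among the promoters of called glutathione, detoxification and NADPH genes, 2 of 28 (7.14%) held the antioxidant response element searched as TGAC, any 3 bases and GCA, as did 3 of 16 of the other tested members and 3.26% of all windows.

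The pentose phosphate pathway makes NADPH for those reductases. TKT, transketolase, had 1147, 1226 and 1261 CPM in the PEPD-OE libraries and 362, 415 and 393 CPM in the NC libraries (log2 fold change 1.63, SE 0.09, edgeR adjusted p = 2.19e-36). PGD, an enzyme that makes NADPH, had 916, 953 and 929 CPM in the PEPD-OE libraries and 329, 344 and 309.6 CPM in the NC libraries (log2 fold change 1.51, SE 0.09, edgeR adjusted p = 5.19e-32). All 3 PEPD-OE libraries stood above the NC libraries for both genes. Of 15 members 6 of the 10 tested rose and 1 fell (median log2 fold change 0.59). The calls were 4 higher and 0 lower without NC library 3.

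Ferritin genes rose and the transferrin receptor gene fell. FTL, ferritin light chain, had 2011, 2108 and 2208 CPM in the PEPD-OE libraries and 661, 719 and 637 CPM in the NC libraries (log2 fold change 1.65, SE 0.07, edgeR adjusted p = 1.01e-42). FTH1 (opposite BEST1), the heavy chain, rose from 760.2 ± 9.13 to 1355 ± 37.6 CPM (log2 fold change 0.83), and BEST1 (opposite FTH1) from 36785 ± 624 to 67290 ± 1976 CPM (log2 fold change 0.87). CP (opposite HPS3), the ferroxidase ceruloplasmin, rose from 274 ± 8.48 to 791 ± 40.9 CPM (log2 fold change 1.53), and BLVRB, biliverdin reductase, from 60.9 ± 12.5 to 125 ± 6.17 CPM (log2 fold change 1.01). TFRC, the transferrin receptor, had 17.8, 35.3 and 28.5 CPM in the PEPD-OE libraries and 58.1, 64.6 and 48.2 CPM in the NC libraries (log2 fold change -1.06, SE 0.25, edgeR adjusted p = 2.71e-04). Of 29 iron and haem genes 7 of the 16 tested rose and 3 fell (median log2 fold change 0.42). The calls were 4 higher and 3 lower without PEPD-OE library 1, and 5 higher and 1 lower without both libraries numbered 2. In the list of lipid peroxidation, ACSL4, which loads polyunsaturated fatty acids into phospholipids, rose from 35.8 ± 5.19 to 74.6 ± 5.41 CPM (log2 fold change 1.05), and DHODH, which also reduces ubiquinone in mitochondria, rose from 14.4 ± 2.48 to 55.9 ± 12.5 CPM (log2 fold change 1.99).

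Genes that charge tRNA fell together. All 20 cytosolic synthetase genes were tested, 12 fell and 0 rose, with a median log2 fold change of -0.62. WARS1 (opposite AL157871.4), the tryptophan enzyme, which interferon also induces, had 23.7, 26.1 and 22.8 CPM in the PEPD-OE libraries and 92.5, 101 and 123 CPM in the NC libraries (log2 fold change -2.14, SE 0.22, edgeR adjusted p = 7.81e-16). TARS1, the threonine enzyme, fell from 102 ± 4.16 to 42.9 ± 7.81 CPM (log2 fold change -1.25), IARS1 from 59.9 ± 12.7 to 29.2 ± 8.21 CPM (log2 fold change -1.08) and SARS1 from 151 ± 5.40 to 77.6 ± 11.4 CPM (log2 fold change -0.96). HARS1 (opposite HARS2) had 155 ± 24.1 CPM in NC and 187 ± 11.2 CPM in PEPD-OE and was not called.

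The carrier of large neutral amino acids fell. SLC3A2, the heavy chain that brings several carriers to the membrane, had 42.9, 58.4 and 54.1 CPM in the PEPD-OE libraries and 260.4, 202 and 235 CPM in the NC libraries (log2 fold change -2.14, SE 0.15, edgeR adjusted p = 3.12e-25). Its partner SLC7A5 (opposite AC126696.2) fell from 271 ± 29.7 to 74.8 ± 7.34 CPM (log2 fold change -1.86), and the glutamine carrier SLC38A1 from 173 ± 31.6 to 81.99 ± 9.32 CPM (log2 fold change -1.10). SLC6A6 (opposite GRIP2), the taurine carrier, rose from 125 ± 9.20 to 415 ± 24.1 CPM (log2 fold change 1.72). Of 28 carriers 2 of the 12 tested rose and 6 fell (median log2 fold change -0.41). In serine synthesis PSAT1 had 2.96, 7.68 and 7.12 CPM in the PEPD-OE libraries and 66.7, 60.6 and 77.4 CPM in the NC libraries (log2 fold change -3.49, SE 0.34, edgeR adjusted p = 5.99e-17), PHGDH, the first enzyme, fell from 127 ± 10.2 to 51.4 ± 8.26 CPM (log2 fold change -1.30), and SHMT2 (opposite AC137834.2), the mitochondrial step to glycine, from 72.5 ± 17.8 to 36.8 ± 6.37 CPM (log2 fold change -0.94).

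Of 24 regulators of the integrated stress response 1 of the 14 tested rose and 8 fell (median log2 fold change -0.84). ATF4 itself fell from 201 ± 24.7 to 117 ± 22.3 CPM (log2 fold change -0.79), ATF5 (opposite NUP62) from 22.5 ± 7.02 to 2.01 ± 1.74 CPM (log2 fold change -3.44, and -2.85 without PEPD-OE library 3), and NUPR1, a stress-induced nuclear protein, from 83.5 ± 4.42 to 27.1 ± 4.91 CPM (log2 fold change -1.62). STC2, a secreted glycoprotein induced by this response, had 62.1, 43.03 and 75.5 CPM in the PEPD-OE libraries and 357, 331 and 334 CPM in the NC libraries (log2 fold change -2.48, SE 0.13, edgeR adjusted p = 1.65e-35). CEBPB (opposite CEBPB-AS1), a C/EBP factor, was the one called rise, from 86.9 ± 17.5 to 239 ± 25.3 CPM (log2 fold change 1.42). The C/EBP-ATF response element, searched as TGATGNAA, was in 9 of the 26 promoters (34.6%) matched to 30 genes called lower. These 30 included genes beyond the synthetase, serine and carrier lists, but the 9 with the element were all of those lists. It was in 2 of 19 matched promoters of tested members of the same set not called or raised, and in 3.67% of all windows. The windows of SLC3A2 and TARS1 are shown because these were the most lowered carrier and synthetase genes with a match among genes with no opposite exon. Capitals mark the match, which in both lies on the other strand after the start.
SLC3A2 (chr11:62881449-62881748, plus strand): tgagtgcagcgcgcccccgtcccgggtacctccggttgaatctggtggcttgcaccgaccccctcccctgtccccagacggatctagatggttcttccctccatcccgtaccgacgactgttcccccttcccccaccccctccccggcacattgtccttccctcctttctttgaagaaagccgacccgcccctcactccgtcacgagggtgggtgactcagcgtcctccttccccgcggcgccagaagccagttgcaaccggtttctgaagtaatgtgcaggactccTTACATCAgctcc
TARS1 (chr5:33440715-33441014, plus strand): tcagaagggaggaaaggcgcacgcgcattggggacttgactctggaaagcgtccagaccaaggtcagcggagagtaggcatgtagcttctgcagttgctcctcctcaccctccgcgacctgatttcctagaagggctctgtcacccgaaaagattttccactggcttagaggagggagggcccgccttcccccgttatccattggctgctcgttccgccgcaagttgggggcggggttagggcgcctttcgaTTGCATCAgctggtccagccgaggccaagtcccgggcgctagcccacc
Each window held 1 match.

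Chaperones fell as a group. Of 36 cytosolic chaperone genes 31 were tested, 20 fell and 1 rose (median log2 fold change -0.53). DNAJA1, a co-chaperone of HSP70, had 84.3, 61.5 and 75.5 CPM in the PEPD-OE libraries and 286, 282 and 283 CPM in the NC libraries (log2 fold change -1.94, SE 0.13, edgeR adjusted p = 5.87e-27). HSPA8, the constitutive HSP70, had 279.6, 369 and 333 CPM in the PEPD-OE libraries and 822, 871 and 747 CPM in the NC libraries (log2 fold change -1.31, SE 0.09, edgeR adjusted p = 5.94e-26). HSP90AA1 (opposite WDR20), stress-inducible HSP90, fell from 876 ± 73.2 to 379 ± 14.7 CPM (log2 fold change -1.21), HSPH1, an HSP70 exchange factor, from 203 ± 10.2 to 59.3 ± 11.3 CPM (log2 fold change -1.78), and CCT3, a subunit of the ring that folds actin and tubulin, from 207 ± 30.8 to 94.9 ± 8.82 CPM (log2 fold change -1.15). DNAJB6, another co-chaperone, had 114 ± 9.05 CPM in NC and 92.6 ± 2.62 CPM in PEPD-OE and was not called. A heat shock element of 3 units, searched as GAA, TTC and GAA with any 2 bases between them, was in 3 of 18 promoters of called members (16.7%), in 1 of 9 of the others and in 0.487% of all windows. The windows of DNAJA1 and HSPA8 are given for the 2 most lowered genes that held it, with matches in capitals.
DNAJA1 (chr9:33025023-33025322, plus strand): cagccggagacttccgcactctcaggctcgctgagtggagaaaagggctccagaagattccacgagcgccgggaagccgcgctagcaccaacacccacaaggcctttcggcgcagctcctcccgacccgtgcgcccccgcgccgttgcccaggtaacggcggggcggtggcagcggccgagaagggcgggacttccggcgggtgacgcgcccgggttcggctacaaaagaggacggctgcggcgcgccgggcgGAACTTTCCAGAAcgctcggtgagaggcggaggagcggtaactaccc
HSPA8 (chr11:123062087-123062386, minus strand): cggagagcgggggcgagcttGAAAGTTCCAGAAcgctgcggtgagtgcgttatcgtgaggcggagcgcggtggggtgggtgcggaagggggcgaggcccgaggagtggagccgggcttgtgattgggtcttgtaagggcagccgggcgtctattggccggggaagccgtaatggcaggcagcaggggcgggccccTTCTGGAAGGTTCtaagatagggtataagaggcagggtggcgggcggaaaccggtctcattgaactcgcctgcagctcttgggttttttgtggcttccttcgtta
HSPA8 held 2 matches, the second on the other strand, and DNAJA1 held 1.

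Proteasome genes fell by smaller steps. Of 38 subunits 1 of the 35 tested rose and 19 fell (median log2 fold change -0.54). The calls were 2 higher and 12 lower without both libraries numbered 2. PSMC3, an ATPase of the cap, had 127, 135 and 119.7 CPM in the PEPD-OE libraries and 263, 265 and 260.1 CPM in the NC libraries (log2 fold change -1.04, SE 0.12, edgeR adjusted p = 1.12e-13), and PSMA4, of the outer ring, fell from 107 ± 7.21 to 57.01 ± 15.97 CPM (log2 fold change -0.92). PSMB8 (opposite PSMB8-AS1), an interferon-induced subunit, fell from 34.9 ± 14.1 to 13.8 ± 5.07 CPM (log2 fold change -1.39). PSMD4, the ubiquitin receptor of the cap, had 152 ± 15.2 CPM in NC and 139 ± 17.5 CPM in PEPD-OE and was not called.

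Of 30 genes of ribosome assembly 1 of the 27 tested rose and 21 fell (median log2 fold change -0.78). The calls were 0 higher and 13 lower without PEPD-OE library 2 or both libraries numbered 2. NOP56, a core protein of methylation guide particles, had 54.7, 67.6 and 61.3 CPM in the PEPD-OE libraries and 219, 191 and 211 CPM in the NC libraries (log2 fold change -1.75, SE 0.15, edgeR adjusted p = 6.81e-20). NCL, nucleolin, had 555, 599 and 642 CPM in the PEPD-OE libraries and 1465, 1456 and 1462 CPM in the NC libraries (log2 fold change -1.29, SE 0.08, edgeR adjusted p = 8.27e-31). NOP58 fell from 76.2 ± 14.8 to 38.3 ± 7.74 CPM (log2 fold change -1.02), and GRWD1, a histone and ribosomal protein chaperone, from 43.4 ± 2.16 to 14.8 ± 2.64 CPM (log2 fold change -1.55). MYC, the factor known for inducing such genes, had 56.4 ± 1.78 CPM in NC and 54.2 ± 6.86 CPM in PEPD-OE and was not called. The MYC-type E-box CACGTG was in 5 of 16 promoters of members called lower (31.2%) and in 1 of 5 of the other tested members. It was in 7.43% of all windows and in 10.7% of those of tested genes. Translation factors followed in part, and of 29 members 3 of the 26 tested rose and 13 fell (median log2 fold change -0.24). EIF5 fell from 80.2 ± 7.12 to 26.2 ± 3.23 CPM (log2 fold change -1.62) and EIF4EBP1, a brake on cap binding, from 64.8 ± 15.98 to 31.9 ± 5.69 CPM (log2 fold change -1.06), whereas EIF4B (opposite AC068888.1) rose from 279 ± 18.3 to 486 ± 5.13 CPM (log2 fold change 0.80). The calls were 1 higher and 10 lower without PEPD-OE library 3, 1 higher and 12 lower without NC library 2, and 1 higher and 13 lower without NC library 3.

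**Figure D3:**
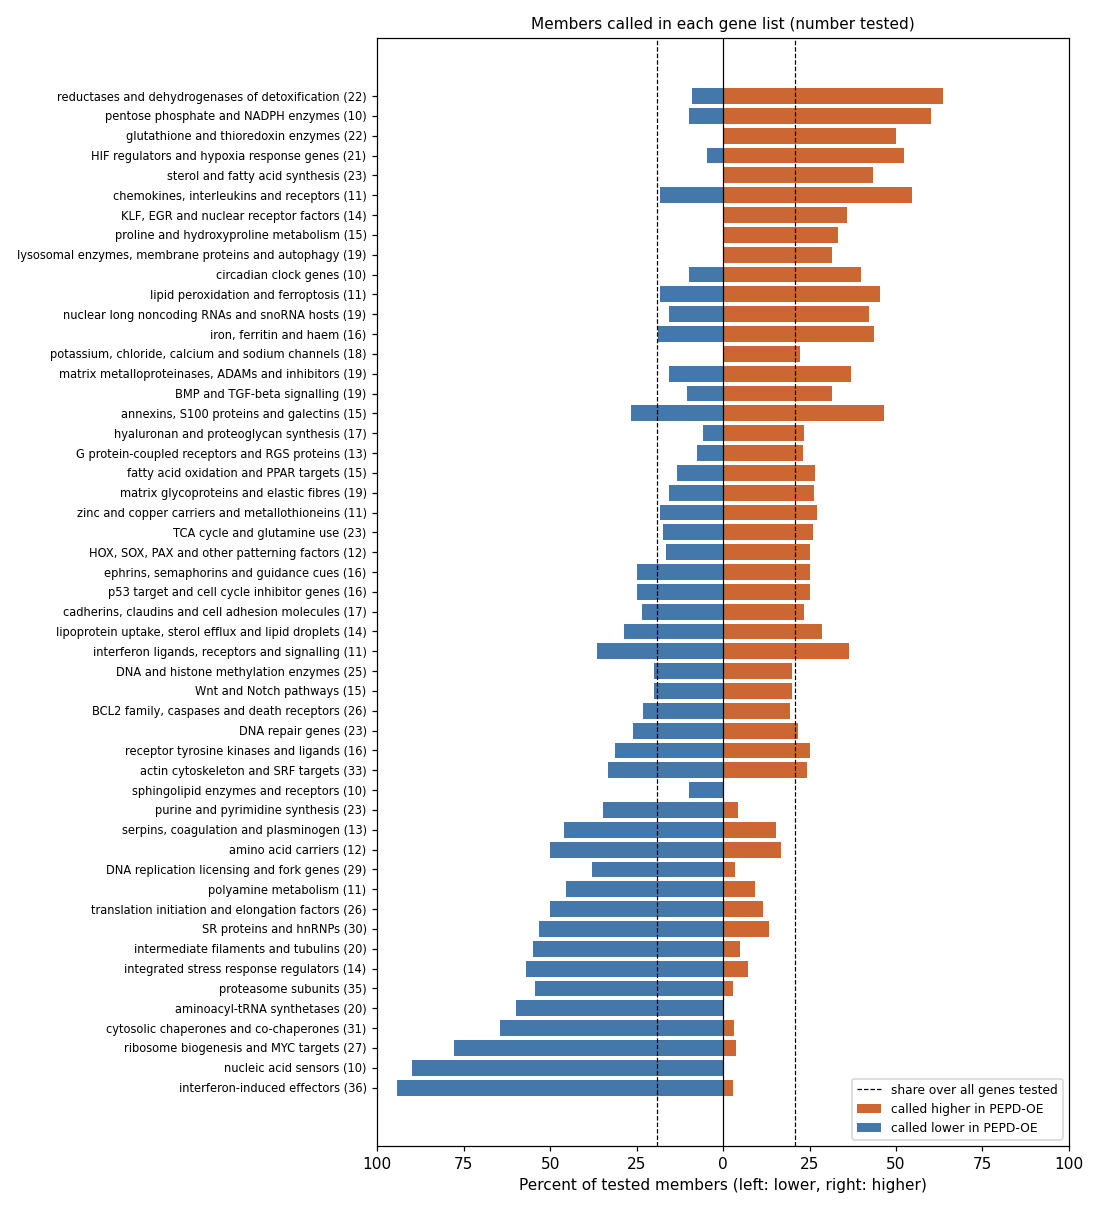
Percent of tested members called higher (right) or lower (left) in PEPD-OE for each list with at least 10 tested members, whose number follows the list name. Dashed lines mark 20.8% and 19.1%, the shares over all 7199 genes tested, and the interferon-induced effectors stand furthest to the left.

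Many splicing factor genes fell. Of 31 SR protein and hnRNP genes 4 of the 30 tested rose and 16 fell (median log2 fold change -0.38). SRSF1 (opposite AC015813.5) fell from 134 ± 39.9 to 54.1 ± 5.61 CPM (log2 fold change -1.24), SRSF6 from 56.00 ± 11.2 to 26.1 ± 4.79 CPM (log2 fold change -1.10) and HNRNPH1 from 230.3 ± 14.6 to 116 ± 8.25 CPM (log2 fold change -0.98), all binders of exon enhancers or G-rich RNA. The nuclear RNA MALAT1 (opposite AP000769.2) rose from 253 ± 14.6 to 779 ± 18.6 CPM (log2 fold change 1.63). The name TALAM1 (opposite MALAT1), annotated across it on the other strand, had 47475, 39265 and 38488 CPM in the PEPD-OE libraries and 12246, 10865 and 11598 CPM in the NC libraries (log2 fold change 1.85, SE 0.11, edgeR adjusted p = 1.74e-04). Whether these counts are reads of MALAT1 was not tested. NEAT1, the scaffold of paraspeckles, had 442, 436 and 424 CPM in the PEPD-OE libraries and 226, 208 and 211 CPM in the NC libraries (log2 fold change 1.02, SE 0.10, edgeR adjusted p = 3.55e-17), and NORAD, which binds Pumilio proteins, rose from 225 ± 3.89 to 401 ± 45.1 CPM (log2 fold change 0.83). Of 26 nuclear RNAs and snoRNA hosts 8 of the 19 tested rose and 3 fell (median log2 fold change 0.08). The calls were 8 higher and 1 lower without PEPD-OE library 1, and 7 higher and 1 lower without NC library 3.

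Nucleotide and replication genes fell in part. PFAS, which makes purines, fell from 26.98 ± 6.51 to 7.89 ± 0.896 CPM (log2 fold change -1.70), IMPDH2 (opposite AC137630.3), which starts guanine nucleotides, from 98.8 ± 2.05 to 40.95 ± 4.50 CPM (log2 fold change -1.26), and CTPS1, which makes CTP, from 69.4 ± 15.8 to 30.3 ± 8.79 CPM (log2 fold change -1.24). Of 29 members 1 of the 23 tested rose and 8 fell (median log2 fold change -0.29). The calls were 1 higher and 5 lower without PEPD-OE library 1 or NC library 3, and 1 higher and 4 lower without NC library 2 or both libraries numbered 2. MCM3, of the replicative helicase, had 78.4, 90.7 and 76.9 CPM in the PEPD-OE libraries and 161, 139.7 and 148 CPM in the NC libraries (log2 fold change -0.86, SE 0.15, edgeR adjusted p = 9.66e-07), MCM10, which activates it, fell from 19.98 ± 3.59 to 6.51 ± 3.99 CPM (log2 fold change -1.57), and CLSPN (opposite AL354864.1), of the fork checkpoint, from 89.8 ± 10.3 to 34.05 ± 2.83 CPM (log2 fold change -1.37). Of 38 replication genes 1 of the 29 tested rose and 11 fell (median log2 fold change -0.58). The calls were 1 higher and 7 lower without PEPD-OE library 1, and 0 higher and 7 lower without both libraries numbered 2. UHRF1, which guides maintenance methylation, had 41.4, 59.9 and 59.8 CPM in the PEPD-OE libraries and 192, 142 and 154 CPM in the NC libraries (log2 fold change -1.56, SE 0.17, edgeR adjusted p = 1.48e-14), and DNMT1, the maintenance methyltransferase, fell from 249.7 ± 20.5 to 143 ± 4.26 CPM (log2 fold change -0.79). EZH2, the polycomb methyltransferase, fell from 130.2 ± 3.79 to 70.6 ± 4.41 CPM (log2 fold change -0.89). HDAC9, a class IIa deacetylase, rose, with 997, 791 and 688 CPM in the PEPD-OE libraries and 151, 142 and 134 CPM in the NC libraries (log2 fold change 2.54, SE 0.11, edgeR adjusted p = 5.90e-39), the lowest PEPD-OE library holding 4.57 times the highest NC library. KDM5B, a histone demethylase, rose from 15.7 ± 3.75 to 33.6 ± 6.44 CPM (log2 fold change 1.11).

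Among repair genes CHEK1, a checkpoint kinase, rose from 21.4 ± 5.91 to 56.8 ± 15.1 CPM (log2 fold change 1.46) and PARP1 fell from 236 ± 11.6 to 167 ± 11.2 CPM (log2 fold change -0.50). ERCC1 (opposite CD3EAP) fell from 468 ± 52.4 to 217 ± 20.2 CPM. Of 33 repair genes 5 of the 23 tested rose and 6 fell (median log2 fold change -0.43). That was 21.7% and 26.1%, beside 20.8% and 19.1% over all genes tested. The calls were 4 higher and 3 lower without PEPD-OE library 1, 2 higher and 4 lower without PEPD-OE library 2, 3 higher and 2 lower without PEPD-OE library 3, 1 higher and 4 lower without NC library 2 or both libraries numbered 2, and 3 higher and 3 lower without NC library 3. In cell cycle control CDKN1B, the inhibitor p27, rose from 26.8 ± 2.85 to 56.99 ± 7.66 CPM (log2 fold change 1.06), while CCND1 (opposite LTO1), cyclin D1, fell from 272 ± 44.1 to 171 ± 11.5 CPM (log2 fold change -0.69) and CDK6 (opposite AC002454.1) from 44.3 ± 8.69 to 16.4 ± 7.10 CPM (log2 fold change -1.39). Among death genes BIRC3, an inhibitor of apoptosis downstream of NF-kappaB, fell from 56.98 ± 6.64 to 21.7 ± 1.87 CPM (log2 fold change -1.41) and its neighbour BIRC2 from 70.00 ± 5.94 to 24.7 ± 3.37 CPM (log2 fold change -1.50). BID, a linker of death receptors to mitochondria, rose from 102 ± 4.87 to 264 ± 25.5 CPM (log2 fold change 1.37). Of 40 death genes 5 of the 26 tested rose and 6 fell (median log2 fold change 0.02), 19.2% and 23.1%, near the shares over all genes tested.

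Enzymes of polyamine synthesis fell. SRM, spermidine synthase, fell from 42.5 ± 13.5 to 14.2 ± 4.68 CPM (log2 fold change -1.58, and -1.03 without both libraries numbered 2), SMS, spermine synthase, from 156 ± 15.3 to 71.4 ± 3.55 CPM (log2 fold change -1.11), and AMD1, which supplies their aminopropyl groups, from 35.98 ± 6.51 to 14.3 ± 0.484 CPM (log2 fold change -1.31). Of 17 members 1 of the 11 tested rose and 5 fell (median log2 fold change -0.19). The calls were 3 higher and 4 lower without PEPD-OE library 2. Without both libraries numbered 2 they were 2 higher and 4 lower. Sphingolipid genes beyond SGPP2 were not called, and of 26 members 0 of the 10 tested rose and 1 fell (median log2 fold change 0.16). SGPP2 was also the most lowered of all genes named by rule.

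Sterol and fatty acid synthesis rose, and of 35 members 10 of the 23 tested rose and 0 fell (median log2 fold change 0.45). SREBF2 (opposite SREBF2-AS1), the master factor of sterol synthesis, rose from 14.9 ± 2.95 to 57.9 ± 11.6 CPM (log2 fold change 1.95), HMGCS1 (opposite AC114947.2), an early step to cholesterol, from 22.4 ± 5.17 to 65.98 ± 17.02 CPM (log2 fold change 1.57), and INSIG1, which retains that factor, from 12.2 ± 2.64 to 35.97 ± 8.11 CPM (log2 fold change 1.52). SCD, the desaturase that makes oleate, had 183, 168 and 177 CPM in the PEPD-OE libraries and 47.3, 46.1 and 52.02 CPM in the NC libraries (log2 fold change 1.85, SE 0.16, edgeR adjusted p = 4.31e-19). FASN, fatty acid synthase, rose from 80.8 ± 15.1 to 137 ± 13.2 CPM (log2 fold change 0.79). LRP1 (opposite LRP1-AS), a scavenger receptor, rose from 66.8 ± 3.77 to 194 ± 14.9 CPM (log2 fold change 1.53). The apolipoprotein L genes APOL6 and APOL1, which interferon induces, fell, APOL6 from 74.7 ± 13.7 to 22.3 ± 5.78 CPM and APOL1 from 101 ± 11.03 to 48.5 ± 8.85 CPM.

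Genes of the hypoxia response rose in part, and of 28 members 11 of the 21 tested rose and 1 fell (median log2 fold change 0.69). The calls were 7 higher and 1 lower without both libraries numbered 2. HIF1A (opposite HIF1A-AS1) rose from 49.00 ± 12.97 to 146 ± 16.8 CPM (log2 fold change 1.51), and EPAS1, its paralog, from 28.4 ± 7.01 to 74.4 ± 16.1 CPM (log2 fold change 1.38). CA12, a surface carbonic anhydrase, had 204, 199.8 and 205 CPM in the PEPD-OE libraries and 32.3, 44.8 and 32.99 CPM in the NC libraries (log2 fold change 2.44, SE 0.17, edgeR adjusted p = 2.24e-26). NDRG1 rose from 212 ± 14.8 to 564 ± 5.63 CPM (log2 fold change 1.42). The glucose carrier SLC2A1 (opposite SLC2A1-AS1) had 129, 134 and 154 CPM in the PEPD-OE libraries and 351, 333 and 341 CPM in the NC libraries (log2 fold change -1.29, SE 0.11, edgeR adjusted p = 2.58e-21), and was the one called fall of the list. In the TCA list PDK2 (opposite SAMD14), which inhibits pyruvate entry, rose from 18.9 ± 7.03 to 79.4 ± 11.3 CPM (log2 fold change 1.99) and GLUL, glutamine synthetase, rose from 35.3 ± 13.9 to 98.5 ± 6.42 CPM (log2 fold change 1.39). Of 30 members 6 of the 23 tested rose and 4 fell (median log2 fold change -0.13). The calls were 5 higher and 2 lower without PEPD-OE library 2, and 4 higher and 2 lower without both libraries numbered 2.

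PEPD releases proline, and of 27 other genes of proline and hydroxyproline metabolism 5 of the 15 tested rose and 0 fell (median log2 fold change 0.16). The calls were 2 higher and 0 lower without NC library 2, 3 higher and 1 lower without NC library 3, and 1 higher and 0 lower without both libraries numbered 2. PLOD2, a collagen lysyl hydroxylase, rose from 206 ± 1.43 to 275 ± 13.4 CPM (log2 fold change 0.42). PYCR1 (opposite AC145207.4), the last enzyme of proline synthesis, rose from 24.9 ± 9.92 to 47.8 ± 7.32 CPM (log2 fold change 0.94), a call lost without NC library 2 (adjusted p = 0.0931) or without both libraries numbered 2 (0.0983). ALDH18A1, the entry enzyme, had 28.5 ± 6.22 CPM in NC and 34.8 ± 9.42 CPM in PEPD-OE and was not called. Of 19 selenoprotein genes 1 rose and 1 fell of 9 tested, the fall being DIO2 (opposite DIO2-AS1), which activates thyroid hormone, from 29.8 ± 6.01 to 6.95 ± 3.90 CPM (log2 fold change -2.04). Lysosomal PSAP, the precursor of the saposins, rose from 119.8 ± 20.1 to 219 ± 19.2 CPM (log2 fold change 0.83), and of 34 lysosome and autophagy genes 6 of the 19 tested rose and 0 fell (median log2 fold change 0.31).

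At the cell surface and in the matrix the genes moved both ways. THBS1 (opposite FSIP1), a matrix protein that activates TGF-beta, had 283, 226 and 302 CPM in the PEPD-OE libraries and 1280.3, 1270.2 and 1290.2 CPM in the NC libraries (log2 fold change -2.24, SE 0.09, edgeR adjusted p = 6.01e-47), and TNC (opposite DEC1), tenascin C, fell from 42.1 ± 12.3 to 8.81 ± 3.59 CPM (log2 fold change -2.28). FN1, fibronectin, had 1042, 987 and 977 CPM in the PEPD-OE libraries and 549, 506 and 610.2 CPM in the NC libraries (log2 fold change 0.85, SE 0.08, edgeR adjusted p = 1.92e-16), and FBN1, fibrillin, rose from 36.4 ± 9.65 to 71.8 ± 7.64 CPM (log2 fold change 1.04). Of 38 matrix glycoproteins 5 of the 19 tested rose and 3 fell (median log2 fold change 0.37). That was 26.3% and 15.8%, beside 20.8% and 19.1% over all genes tested. SERPINE2, a protease inhibitor, fell from 159 ± 21.7 to 34.4 ± 4.51 CPM (log2 fold change -2.19) and the plasminogen activator PLAU (opposite C10orf55) from 83.1 ± 20.6 to 36.3 ± 8.42 CPM (log2 fold change -1.23), as did F3, tissue factor, from 92.3 ± 7.13 to 25.5 ± 5.06 CPM (log2 fold change -1.84). Of the 25 members 2 of the 13 tested rose and 6 fell (median log2 fold change -0.25). MMP2, gelatinase A, rose from 332 ± 11.6 to 572 ± 50.8 CPM (log2 fold change 0.78), and MMP13, a collagenase, fell from 139 ± 6.27 to 62.6 ± 6.91 CPM (log2 fold change -1.14). CSPG4 (opposite AC105020.4), the NG2 proteoglycan of glioma cells, rose from 23.6 ± 6.21 to 97.3 ± 16.7 CPM (log2 fold change 2.08).

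Among adhesion molecules CDH2 (opposite AC110015.1), N-cadherin, fell from 21.7 ± 6.05 to 4.44 ± 2.58 CPM (log2 fold change -2.25) and CADM1 from 130.1 ± 13.8 to 36.3 ± 10.2 CPM (log2 fold change -1.82), while VCAM1, an integrin ligand, rose from 13.9 ± 2.97 to 50.8 ± 2.97 CPM (log2 fold change 1.90) and CLDN4, a claudin, from 23.2 ± 10.3 to 101 ± 6.38 CPM (log2 fold change 2.10). Of 37 members 4 of the 17 tested rose and 4 fell (median log2 fold change 0.04), 23.5% each way, near the shares over all genes tested. The calls were 2 higher and 3 lower without NC library 2 or both libraries numbered 2. KRT81, a keratin, had 20.7, 26.1 and 28.5 CPM in the PEPD-OE libraries and 159, 124 and 136 CPM in the NC libraries (log2 fold change -2.44, SE 0.20, edgeR adjusted p = 9.03e-21). KRT8 (opposite KRT18), another, fell from 86.03 ± 13.8 to 48.5 ± 21.6 CPM (log2 fold change -0.82, and -0.51 without PEPD-OE library 1), as did VIM (opposite VIM-AS1), vimentin, from 734 ± 41.6 to 472 ± 22.3 CPM (log2 fold change -0.64), and LMNA, lamin A, from 571 ± 24.4 to 429 ± 9.31 CPM (log2 fold change -0.42). Of 28 intermediate filament and tubulin genes 1 of the 20 tested rose and 11 fell (median log2 fold change -0.41). Actin genes split, with ACTG1 rising from 487 ± 0.624 to 736 ± 59.3 CPM (log2 fold change 0.60) and ACTB falling from 1593 ± 36.3 to 1332 ± 46.8 CPM (log2 fold change -0.26).

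Growth factor and receptor genes moved both ways. NRG1, a ligand of ERBB receptors, fell from 46.1 ± 1.87 to 19.2 ± 1.29 CPM (log2 fold change -1.26) and EGFR (opposite EGFR-AS1) from 96.1 ± 9.44 to 54.3 ± 5.45 CPM (log2 fold change -0.84). The receptor kinase gene AXL (opposite AC011510.1) had 72.5, 63.01 and 49.9 CPM in the PEPD-OE libraries and 125, 137 and 145 CPM in the NC libraries (log2 fold change -1.15, SE 0.17, edgeR adjusted p = 3.06e-09). PDGFA rose from 5.32 ± 1.16 to 22.8 ± 6.86 CPM (log2 fold change 2.02) and PDGFD (opposite DDI1) from 7.002 ± 4.10 to 22.2 ± 7.95 CPM (log2 fold change 1.75). Of 44 members 4 of the 16 tested rose and 5 fell (median log2 fold change 0.09). IGFBP5 (opposite AC007563.2), a binding protein for insulin-like growth factors, had 4436, 4194 and 4516 CPM in the PEPD-OE libraries and 1394, 1340 and 1544 CPM in the NC libraries (log2 fold change 1.62, SE 0.06, edgeR adjusted p = 9.28e-49), while IGFBP3 fell from 151 ± 11.2 to 64.9 ± 9.83 CPM (log2 fold change -1.19). TGFB2 rose from 23.6 ± 7.17 to 97.3 ± 15.2 CPM (log2 fold change 2.02) and its receptor TGFBR2 fell from 29.01 ± 6.65 to 10.9 ± 1.25 CPM (log2 fold change -1.35). LRP5, a Wnt co-receptor that DKK1 blocks, rose from 30.4 ± 2.13 to 114 ± 5.28 CPM (log2 fold change 1.89). FOSL1 fell from 176 ± 39.9 to 63.9 ± 11.1 CPM (log2 fold change -1.48) and FOS rose from 10.8 ± 5.04 to 31.7 ± 7.16 CPM (log2 fold change 1.58), both of the AP-1 family. EPHA2 and EPHB2 (opposite MIR4253), receptors of ephrins, fell, EPHA2 from 60.7 ± 5.04 to 24.7 ± 3.88 CPM and EPHB2 from 82.8 ± 14.05 to 24.5 ± 6.02 CPM. SOX9, a stem and glial factor, fell from 84.5 ± 16.8 to 30.9 ± 7.15 CPM (log2 fold change -1.40).

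Several nuclear receptor and clock genes rose. RARB (opposite TOP2B), a receptor of retinoic acid, rose from 4.88 ± 0.511 to 25.6 ± 6.07 CPM (log2 fold change 2.32), RARG, another, from 11.3 ± 1.18 to 30.7 ± 5.60 CPM (log2 fold change 1.41), and NR2F1 (opposite NR2F1-AS1), an orphan receptor of neural development, from 197 ± 5.11 to 356 ± 20.9 CPM (log2 fold change 0.85). KLF9, a Kruppel-like factor that glucocorticoid and thyroid hormone induce, had 102, 99.9 and 78.3 CPM in the PEPD-OE libraries and 27.97, 23.7 and 31.7 CPM in the NC libraries (log2 fold change 1.74, SE 0.22, edgeR adjusted p = 1.79e-11). Of 29 such factors 5 of the 14 tested rose and 0 fell (median log2 fold change 0.21). The clock genes CLOCK (opposite TMEM165) and BHLHE40 (opposite BHLHE40-AS1), which activate and repress the same promoters, rose from 28.1 ± 1.79 to 64.3 ± 11.6 CPM and from 13.5 ± 4.26 to 45.2 ± 10.8 CPM. Of the clock list 4 of 10 tested genes rose and 1 fell, CSNK1D (opposite AC132872.4), a kinase of clock proteins, from 399.9 ± 32.03 to 318 ± 23.5 CPM (log2 fold change -0.32), whose call was lost without PEPD-OE library 2 or without both libraries numbered 2. SNAI2, a repressor of epithelial genes, rose from 6.77 ± 2.59 to 19.7 ± 2.41 CPM (log2 fold change 1.58).

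Calcium-binding and guidance proteins also moved both ways. ANXA4 rose from 49.1 ± 8.13 to 128 ± 10.7 CPM (log2 fold change 1.38) and ANXA5 fell from 521 ± 39.3 to 380.1 ± 56.2 CPM (log2 fold change -0.45), both annexins that bind membranes through calcium. S100A11 fell from 48.8 ± 11.1 to 22.8 ± 6.46 CPM (log2 fold change -1.14), while S100A1 (opposite AL162258.2) rose from 25.8 ± 5.77 to 58.2 ± 2.34 CPM (log2 fold change 1.12). Of 25 annexin, S100 and galectin genes 7 of the 15 tested rose and 4 fell (median log2 fold change 0.33). The calls were 3 higher and 3 lower without both libraries numbered 2. EFNB1, a membrane ephrin, rose from 14.4 ± 2.48 to 53.5 ± 15.2 CPM (log2 fold change 1.93), NRP2 (opposite AC007362.1), a semaphorin receptor, from 11.1 ± 2.16 to 32.5 ± 8.47 CPM (log2 fold change 1.50), and SEMA3A, a semaphorin, fell from 26.5 ± 4.85 to 9.28 ± 3.35 CPM (log2 fold change -1.48). KCNE4, a potassium channel subunit, rose from 10.9 ± 0.457 to 44.3 ± 3.78 CPM. GPRC5A, an orphan receptor that retinoic acid induces, fell from 18.7 ± 4.86 to 5.47 ± 1.92 CPM (log2 fold change -1.69). CPT1A, which admits fatty acids to mitochondria, fell from 82.1 ± 9.10 to 44.9 ± 5.22 CPM (log2 fold change -0.89), while PPARA, a factor that induces it, rose from 12.8 ± 9.22 to 38.2 ± 11.2 CPM (log2 fold change 1.40). MT2A, a metallothionein, fell from 71.5 ± 12.2 to 35.4 ± 6.71 CPM (log2 fold change -0.98).

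The defining glioma markers were present in part. Of 12 glioma markers 6 were tested, FN1 and SPARC (opposite CLMAT3, from 671 ± 38.3 to 1132 ± 48.9 CPM) rose, VIM and EGFR fell, and CD44 (opposite CD44-AS1) and GFAP (opposite CCDC103, 48.7 ± 8.62 CPM in NC and 65.4 ± 19.4 CPM in PEPD-OE) were not called. GFAP was called higher without PEPD-OE library 1 (log2 fold change 0.62) but stood at 0.19, not called, without PEPD-OE library 3. In bulk RNA, fewer cells of a type and less RNA per cell cannot be told apart. OLIG2, AQP4 and S100B had 0 counts in all 6 libraries, SOX2 had 2 counts and NES 19. The 12 glioma markers together summed to 3325 to 3520 CPM in PEPD-OE and 2858 to 2998 CPM in NC. Of the 8 fibroblast markers 2 were tested, and the list summed to 552 to 688 CPM in PEPD-OE against 248 to 315 CPM in NC, mainly through COL1A2 (from 227 ± 34.1 to 532 ± 76.6 CPM). The 9 epithelial markers had 3 tested members and overlapping sums. None of the markers of macrophages, endothelium, or neurons and oligodendrocytes was tested. Their part in any result was not tested.

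Both names of many opposite-strand pairs moved the same way. BEST1 held 210300 counts over the 6 libraries against 4278 under FTH1, and both rose by nearly the same log2 fold change (0.87 and 0.83). TUBA1B-AS1 (opposite TUBA1B) held 89381 against 1360, and both fell (-0.44 and -0.65, the latter opposite AC011603.2). MMACHC (opposite PRDX1) held 21303 against 1074, and both rose (1.19 and 0.83, the latter opposite MMACHC), PRDX1 being a peroxiredoxin. VIM-AS1 (opposite VIM) held 18973 against 2447 (-0.66 and -0.64). Not every abundant pair did so. ATP6V1C2 (opposite PDIA6) held 18211 against 281 and fell (-0.25), while its partner was not called (-0.04). Of 498 tested pairs of a noncoding name with the coding gene opposite it, 273 were called under the noncoding name and 208 under the coding name. There were 135 called under both names, 109 of them in 1 direction. For 188 noncoding names at least 95% inside coding exons, 126 pairs had both names tested, the noncoding name had more counts in 93, and of 38 called under both names 35 moved the same way. The unnamed gene inside NQO1 is such a case. Its log2 fold change was 1.29 beside 1.25 under NQO1, with 10452 counts against 3218.

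**Figure D4:**
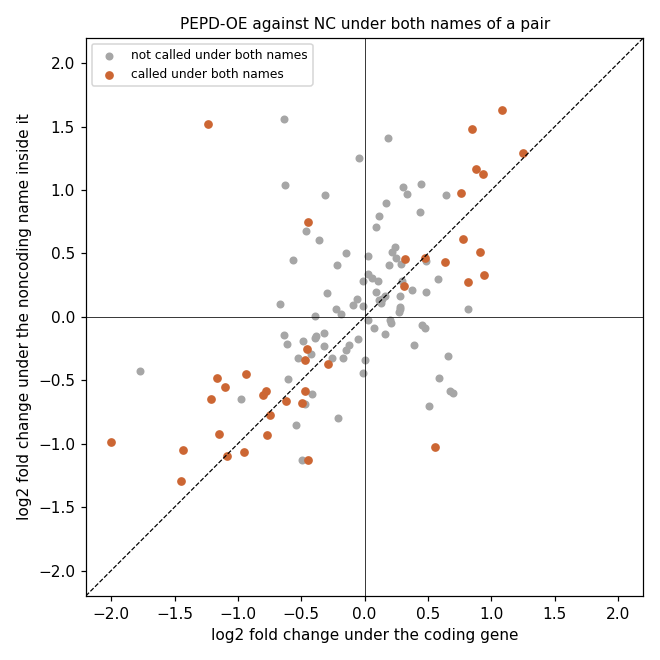
Log2 fold change of PEPD-OE against NC under noncoding names at least 95% inside the exons of a coding gene on the other strand (y axis) against that of the coding gene (x axis), for the 126 pairs with both tested. Orange marks the 38 pairs called under both names, and the dashed line marks equal change, and 35 of these 38 moved the same way.

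The change in T98G was set beside that in U251, the other glioblastoma line, treated in the same 2 ways with 3 libraries a group. In a fit of all 12 libraries the difference of the 2 changes was called for 27.7% of 8773 genes tested. Of the 20 most raised genes 17 had a called difference, and of the 20 most lowered 19. These genes were chosen on their T98G values, so large differences were to be found among them. In U251 none of the 20 raised genes was called upward, and 7 of the 20 lowered genes were called downward. SGPP2 rose in U251 by 0.87 on the log2 scale against a log2 fold change of -6.83 in T98G (-7.69 without PEPD-OE library 2). CCDC152 (opposite SELENOP) fell in U251 by 1.74 on the log2 scale against a rise of 4.34. IFIT3 fell in both, by 0.64 on the log2 scale in U251, as did ISG15 (opposite AL645608.3), which fell by 0.85 there, with adjusted p-values of the difference of 5.67e-18 and 1.44e-23. The values for the 36 of these 40 genes with a called difference are given among the results set apart for a closer look.

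**Figure D5:**
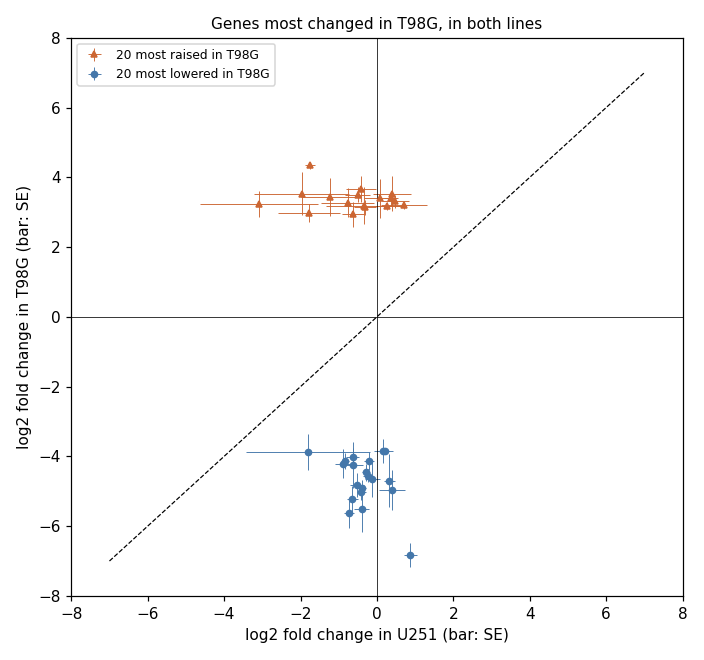
Log2 fold change of PEPD-OE against NC in U251 (x axis) and T98G (y axis) with standard errors, for 37 of the 40 genes most changed in T98G. The other 3 had no counts in U251. The dashed line marks equal change, with all 37 genes further from 0 in T98G than in U251. The genes were chosen for a large change in T98G, which favours that outcome.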

How the data were processed

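The deposited table holds whole-number read counts per gene, which the authors made from strand-marked (dUTP) polyA libraries read on a NovaSeq, per the labels' protocols. Tools named in the submitters' processing notes, with no version, are featureCounts, Subread, HISAT2, fastp and FastQC, and the build is GRCh38. Which annotation release was counted, and with which strand setting, is not given in the sources used here. Each T98G column was matched to its sample by name.

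The 6 T98G libraries were filtered, scaled and tested alone in R 4.3.3 with edgeR 4.0.16 (filterByExpr with a minimum count of 10, TMM, robust quasi-likelihood fit without replicate block, 4 residual degrees of freedom, Benjamini-Hochberg adjustment, threshold 0.05). CPM are per 1000000 of TMM-scaled library size, ± is the SD over 3 libraries, and the standard error is the log2 fold change over the root of F. An exact permutation test of 3 against 3 cannot go below 0.1, so single genes were tested only within that fit. Ratios with 3 counts or fewer in a group carry exact 95% intervals, which cover counting error only. Alternatives were DESeq2 1.42.0, other scalings and filters, a replicate block, left-out libraries and all 12 libraries together, and the fit was tested on simulated data.

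Gene IDs were matched to GENCODE release 29 (58228 of 63241, 92.1%, with 95.8% of the T98G counts) for exons on the opposite strand. This release may be older than the one counted, so overlaps can be missed, and the partner named is the one with the largest overlap. Promoters came from the RefSeq table (GRCh38.p14).

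The gene lists and the genes described were chosen with earlier results of these data known. Genes are named if they are PEPD, among the 20 most raised or 20 most lowered called genes with an established symbol, at least 10 CPM in the higher group and no overlap between groups, among the 6 most changed called members of a list in each direction, among the 2 most abundant uncalled members of a list, among the 10 most abundant names of opposite-strand pairs, or tested markers. ACTB, ADAR, AKR1B1, ALDH18A1, ALDH3A2, ATF4, BST2, DNAJB6, FASN, GBP1, GBP3, GSTP1, IFITM1, IFITM3, IFNAR1, KEAP1, LGALS3BP, LMNA, NOP58, NQO1, PRDX1, PSMA4, SP100, TUBA1B, TXNRD1 and the blood cell genes were added after their values were seen, as was the fit without both libraries numbered 2. The other 6 libraries, from U251, enter only the comparison of the lines. Some named genes are not reported here.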

Additional observations from a re-analysis of the deposited data

Results flagged for a closer look

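The 36 genes in this section had a change in T98G that differed from that in U251 by a test of the difference itself (edgeR adjusted p under 0.05 in the fit of all 12 libraries, in which 27.7% of genes had a called difference). Each value is the T98G log2 fold change minus the U251 log2 fold change. They were taken from the 40 genes most changed in T98G, a choice made on the T98G values, so large differences were to be found among them.

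The log2 fold changes of interferon-induced genes lay lower in T98G than in U251, where not all of them fell. The differences stood for IFI27 at -4.87, RSAD2 (opposite CMPK2) at -5.13, IFIT3 at -4.56, MX1 (opposite AP001610.1) at -4.59, IFI44L at -4.49, OAS2 at -4.28, HERC6 at -4.52, OAS3 at -4.30, IFI6 at -4.15, OASL at -3.61, IFIT2 (opposite LIPA) at -3.31, ISG15 (opposite AL645608.3) at -3.26, SAMD9 at -3.91, MX2 at -3.37 and XAF1 (opposite PRAL) at -4.00. Of these genes only IFI27, IFIT3, MX1, IFI44L, IFIT2, ISG15 and MX2 were called lower in U251. XAF1 had a log2 fold change of 0.16 in U251 and was not called there. ISG15 had 949.9 CPM in U251 NC and 525 CPM in U251 PEPD-OE, IFIT3 174 and 111 CPM. The cause of the difference was not tested.

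Outside the interferon genes the differences of the lowered genes stood for SGPP2 at -7.69, KRT80 at -5.35, DKK1 (opposite PRKG1-AS1) at -5.03 and PRAL (opposite XAF1) at -4.03. SGPP2 had 86.9 CPM in U251 NC and 161 CPM in U251 PEPD-OE.

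Among raised genes the differences of metabolic and channel genes stood for SCN8A (opposite AC068987.2) at 3.17, SAT1 at 4.04, DCPS (opposite AP001318.2) at 2.86, AKR1C2 at 2.51, AKR1C1 at 2.93 and CACNA2D2 (opposite CYB561D2) at 3.47. Those of other protein-coding names stood for CCDC152 (opposite SELENOP) at 6.11, ANKRD34A (opposite AC243547.2) at 4.68, FAM20A at 3.35, TBC1D10C (opposite PPP1CA) at 4.08, SPAG4 at 4.78 and BCL6 (opposite AC072022.2) at 3.59. Those of noncoding and pseudogene names stood for RN7SKP23 (opposite COG7) at 4.12, OR13E1P (opposite TMEM8B) at 5.54, HIF1A-AS3 at 3.06, FXYD6-AS1 (opposite FXYD6) at 6.34 and PIWIL2-DT (opposite POLR3D) at 3.55. Several of these differences rest on few U251 counts. FXYD6-AS1 had 1.26 CPM in U251 NC and 0 in U251 PEPD-OE (SE of the difference 1.77). In the same order OR13E1P had 2.06 and 0.40 CPM (SE 1.50) and PIWIL2-DT 2.11 and 1.47 CPM (SE 1.29). SPAG4 had 4.58 and 1.07 CPM (SE 0.88) and AKR1C2 2.92 and 4.61 CPM (SE 0.74). The call of the difference was lost for OR13E1P (4.89) and AKR1C2 (2.33) without U251 NC library 1, for FXYD6-AS1 (5.49) without U251 NC library 2, and for PIWIL2-DT without any 1 of 6 libraries (2.04 to 3.39).

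Leaving out 1 library moved other differences by over 1.5-fold with the call kept. Without T98G PEPD-OE library 2, SGPP2 stood at -8.58, RSAD2 at -7.12, DKK1 at -7.02, IFI27 at -5.76, OAS2 at -5.45 and IFIT2 at -5.13. Without T98G PEPD-OE library 3, HERC6 stood at -5.35, IFIT3 at -3.97 and IFIT2 at -2.72, and without T98G PEPD-OE library 1 IFIT3 stood at -6.09. Without T98G NC library 2, TBC1D10C stood at 4.92, SAT1 at 4.79 and OR13E1P at 4.90, and without T98G NC library 3 PIWIL2-DT stood at 7.49 and OR13E1P at 6.27. Without U251 PEPD-OE library 3, SPAG4 stood at 7.80, PIWIL2-DT at 4.67 and AKR1C2 at 3.74. Without U251 PEPD-OE library 2 OR13E1P stood at 7.30, and without U251 PEPD-OE library 1 ANKRD34A stood at 5.46 and TBC1D10C at 4.79.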

How the results depend on the processing

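The counts of called genes kept within 1.5 times of 2872 under relative log expression scaling (2865), upper-quartile scaling (2873), no count filter (2874), a filter of at least 1 CPM in 3 libraries (3239), all 12 libraries in the fit (2837) and estimation without robust weights (2836). They moved further under DESeq2 (1911 genes, 1024 higher and 887 lower), when tested against a change of 0.5 on the log2 scale (1385, 774 and 611), and with only genes without an opposite exon (1146, 591 and 555), which leaves 3258 genes tested. Leaving out 1 library gave 2473 to 2773 genes, 1316 to 1484 higher and 1157 to 1289 lower, with PEPD between 3.48 and 4.50. Of 64 gene list counts, DESeq2 moved 22 by over 1.5 times, and leaving out both libraries numbered 2 moved 15.

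The replicate numbers were not taken to pair the samples, since the labels do not say that they mark a shared culture or day. Deviations of same-numbered libraries correlated by 0.0351, 0.0879 and -0.00448. Both libraries numbered 2 shared high counts of blood cell genes, and whether same-numbered libraries shared handling was not tested. A fit with the replicate number as a block called 2916 genes, 1507 higher and 1409 lower, with PEPD at 3.99, and moved no list count by over 1.5 times.

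Of the named genes no called gene changed direction. In the test against 0.5, 16 lost the call. Uncalled SELENOP ranged from -0.18 to 0.27 with 1 library left out and was -0.12 without both libraries numbered 2, MYC (-0.14 to 0.021) and SLC7A11 (-0.23 to 0.066) likewise crossed 0. Depth limits the low genes. In simulated counts of these libraries, with 200 genes changed, the test called 75.8% of 2-fold and 97.8% of 4-fold changes. These rates count only changed genes that passed the filter, and there were 6 false calls. The real data had 39.9% of genes called, a far larger share than was changed in the simulation, so the rates may not carry over.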

Other observations

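Genes encoded by the mitochondrial genome moved together, and 12 of the 15 tested (80.0%) rose and 0 fell, with a median log2 fold change of 0.66. On the autosomes the median log2 fold change of tested genes lay between -0.19 (chromosome 13) and 0.10 (chromosome 18).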
